A study of Mus musculus with 4 samples.

Results

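The genes described here encode the enzymes that write, copy and remove DNA methylation: the methyltransferases Dnmt1, Dnmt3a and Dnmt3b, the maintenance cofactor Uhrf1, the dioxygenases Tet1, Tet2 and Tet3, and the glycosylase Tdg. They were taken by symbol from a deposited expression table of 47935 loci. All 8 had a row of their own, with none shared with another symbol, and 7 of the 8 reached the level needed for testing. The samples were DMSO-induced MEL cells, grown with 1.5% dimethyl sulfoxide, and uninduced MEL cells, with 2 samples in each group. MEL cells are a mouse erythroleukemia line, and DMSO sets off an erythroid-like differentiation in them. Both groups are the same line, and how long the cells were exposed is not stated in the labels. Total RNA depleted of ribosomal RNA was sequenced, and levels are FPKM (fragments scaled to transcript length and to the mapped fragments of the library), so genes can be compared per length. Nothing in the labels ties the 2 replicates of a group to separate cultures, so a p-value here reflects the scatter of these 4 samples, and that scatter may be technical.

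DNA methylation in mammals is the addition of a methyl group to cytosine, mostly where it is followed by guanine. Dnmt3a and Dnmt3b place new marks. After replication Uhrf1 binds DNA methylated on a single strand and brings in Dnmt1, which copies the mark to the new strand. TET enzymes oxidise 5-methylcytosine, and Tdg cuts out the most oxidised forms, which base excision repair then replaces with plain cytosine. Loss of methylation can therefore be passive, when copying fails during replication, or active, through TET and Tdg. A broad loss of methylation is known in mouse erythroid maturation.

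The erythroid label held in the markers. Hbb-bs, an adult beta-globin gene, stood at 15800 and 39767 FPKM in the DMSO-induced samples and at 95.2 and 130 FPKM in the uninduced samples. Of 10 erythroid markers, 8 rose and none was lower past the threshold, beside 11.5% of all loci called higher. The 8 include Slc4a1, at 82.8 and 186 FPKM in DMSO-induced samples and 0.49 and 0.56 FPKM in uninduced samples. Slc4a1 entered the test through the group where it was high, so its call carries no weight. Summed over the list, the 5 macrophage markers were at 1.08 to 2.16 FPKM in DMSO-induced samples and 4.74 to 7.30 FPKM in uninduced samples. The most abundant in each was Cd68, at 1.72 and 0.67 FPKM in DMSO-induced samples and 7.09 and 4.68 FPKM in uninduced samples. The entry of Cd68 to the test depended on the uninduced group, where it was high, and no test is given. Adgre1 was at 0.02 FPKM or less in every sample. The 5 lymphocyte markers summed to at most 0.82 FPKM in any sample, with Ms4a1 listed at 0 in all of them, and the 3 measured fibroblast markers to at most 0.96 FPKM. The libraries differed in depth and in their most abundant RNA. Depth was not given, and an estimate from the smallest FPKM steps put it at 0.61 and 0.74 in DMSO-induced replicates 1 and 2 and at 0.92 in uninduced replicate 1, relative to uninduced replicate 2, so both DMSO-induced libraries were the shallower ones. Exact zeros need care, since 34 and 29 loci at 0 in the DMSO-induced samples had 5 FPKM or more in the others, against 4 and 1 loci in the uninduced samples. The abundant RNA Rn7sk took 18.7% of the summed FPKM in DMSO-induced replicate 1 and was listed at 0 in DMSO-induced replicate 2, against 8.84% and 12.8% in the uninduced samples. The part of depth, of Rn7sk and of the Cd68 difference in the results below was not tested.

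The 5 genes Dnmt1, Uhrf1, Dnmt3a, Dnmt3b and Tdg had both DMSO-induced values below both uninduced values, and Tet2 and Tet3 had both above. Past the threshold (limma over 12890 loci, Benjamini-Hochberg adjusted p under 0.05) were Uhrf1, Dnmt3b and Tdg, all lower in DMSO-induced cells. These 3 of 7 tested genes (42.9%) stand beside 26.2% of all loci called in either direction, or 14.7% called lower. No member was called higher, against 11.5% of all loci. The 7 tested members all had groups that did not overlap, as did 70.8% of all loci, with 34.7% lower and 36.1% higher. The median log2 fold change was -0.67 over the 7 members and 0.03 over all loci tested. With any 1 of the 4 samples left out, all 7 kept their direction, as groups that do not overlap must. Such a fit has 1 sample in 1 group, and few of all loci pass in it.

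**Figure D1:**
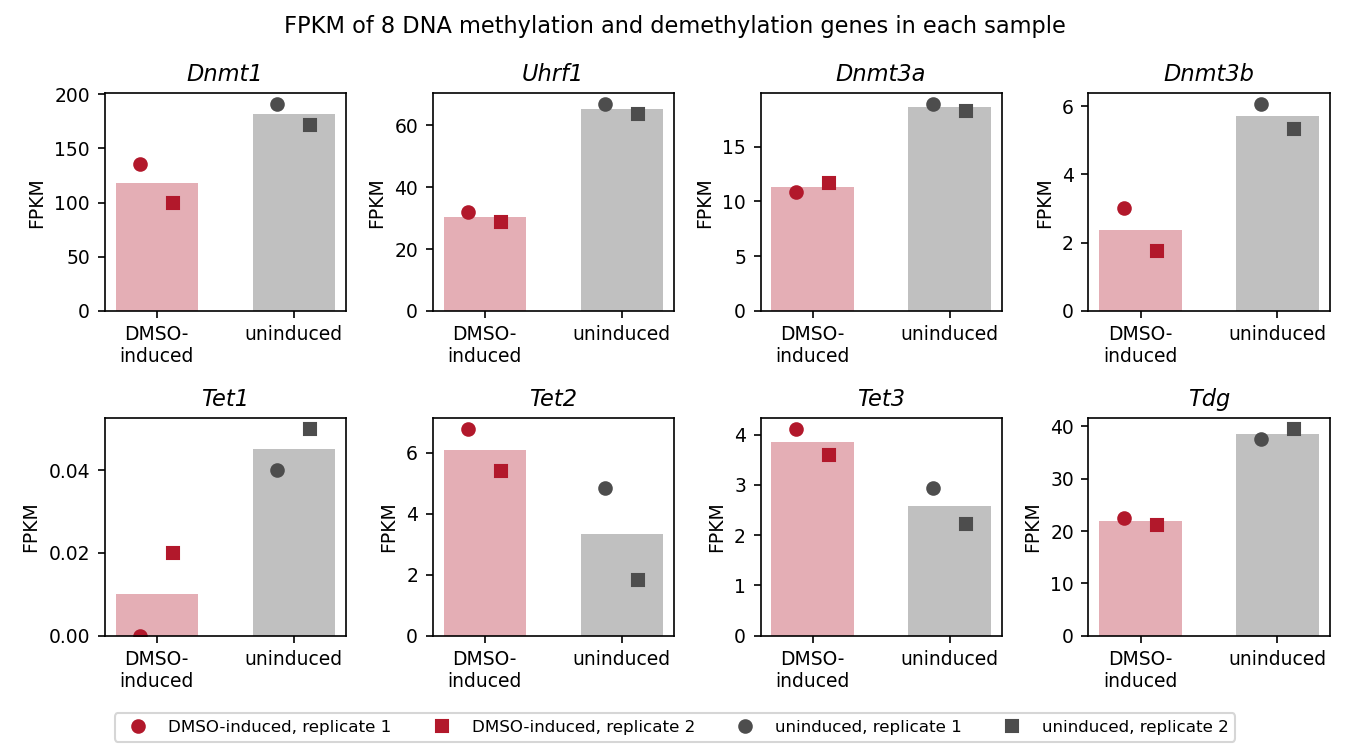
FPKM of each of the 8 genes (vertical axes, each from 0) in DMSO-induced samples (red, left) and uninduced samples (grey, right). Bars are group means of n = 2, and circles and squares are replicates 1 and 2. Dnmt1, Uhrf1, Dnmt3a, Dnmt3b and Tdg are lower in both DMSO-induced samples, Tet2 and Tet3 are higher in both, and Tet1 is at 0.05 FPKM or less everywhere.

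Of the maintenance pair, both had lower values after induction and Uhrf1 passed the test. Uhrf1 (chromosome 17, 56303321 to 56323486, plus strand, GRCm38 as in GENCODE M21) had 32.0 and 28.8 FPKM in the DMSO-induced samples and 67.0 and 63.7 FPKM in the uninduced samples. The replicates lay close together and the groups were far apart. Its mean was 30.4 ± 2.23 FPKM in DMSO-induced and 65.3 ± 2.37 FPKM in uninduced cells (SD, n = 2 each), a ratio of 0.465. Uhrf1 fell by 1.08 ± 0.18 on the log2(FPKM + 1) scale (± SE, limma adjusted p = 0.0200, 95% interval -1.55 to -0.61). It was the only member that also passed under quantile scaling, median-of-ratios scaling and scaling to sums that leave out globins and each sample's 10 top loci. In bulk RNA, fewer cells that carry a transcript and less of it per cell cannot be told apart.

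Dnmt1 (chromosome 9, 20907209 to 20959888, minus strand), the maintenance methyltransferase, was the most abundant member in every sample. It had 136 and 100 FPKM in DMSO-induced samples and 191 and 172 FPKM in uninduced samples. Both DMSO-induced values were the lower ones, but they lay further apart than the uninduced pair. The log2 fold change was -0.63 ± 0.23 and did not pass (limma adjusted p = 0.104, 95% interval -1.23 to -0.03). Leaving out DMSO-induced replicate 2 gave -0.41 (adjusted p = 0.394). With quantile scaling it came to -0.36 (adjusted p = 0.297), and with median-of-ratios scaling to -0.71 (limma adjusted p = 0.0842). Among protein-coding loci alone the limma adjusted p was 0.0574, and Dnmt1 passed in no alternative. Its mean level exceeded that of 93.6% of tested loci in DMSO-induced cells and 94.8% in uninduced cells, while Uhrf1 exceeded 76.8% in DMSO-induced and 86.8% in uninduced cells.

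Within each sample the ratio of Dnmt1 to Uhrf1 does not depend on any single scaling factor for the library. There were 4.26 and 3.47 FPKM of Dnmt1 per FPKM of Uhrf1 in the DMSO-induced samples and 2.85 and 2.70 in the uninduced samples. The ratio was higher in both DMSO-induced samples. The mean log2 ratios, 1.94 ± 0.21 in DMSO-induced and 1.47 ± 0.06 in uninduced cells (SD, n = 2 each), differed by 0.47 (two-sided exact permutation p = 0.33, which 2 against 2 samples cannot go below).

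Promoter sequence was examined for words of E2F factors, which drive genes of S phase, and of GATA factors, which drive erythroid genes. The 8 genes had 13 promoter windows in the RefSeq table (GRCm38.p6), each running from 250 bases before a transcript start to 50 after it. The E2F words TTTGGCGC, TTTGCCGC, TTTCGCGC and TTTCCCGC were sought on both strands. They stood in windows of 2 members, the maintenance pair Uhrf1 and Dnmt1, with 1 window each, and in 2.26% of all 32851 windows. The other windows of these genes held none. Each E2F word contains a CpG, and both windows with a match were rich in CpG (observed over expected 0.96 for Uhrf1 and 0.91 for Dnmt1). The share among windows of like CpG content was not computed. The GATA words, AGATAA or AGATAG and their variants TGATAA or TGATAG, were sought in the same way and stood in 1 member window, the most upstream of the 3 windows of Dnmt1, and in 29.8% of all windows; no E2F word overlapped a GATA word. The stretches around the E2F words are shown because the maintenance pair were the only members with a match. They read 5′ to 3′ along the gene with the word in capitals. The Uhrf1 word lies 185 bases before the start at 56304313, in chr17:56304083-56304180 on the plus strand. It is within the annotated span of the gene and outside annotated exons. The Dnmt1 words lie around the start at 20952623 on the minus strand, in chr9:20952824-20952853, where the word is read on the opposite strand (GCGCGAAA), and in chr9:20952574-20952601. Both Dnmt1 words lie in annotated exons of the gene.
Uhrf1: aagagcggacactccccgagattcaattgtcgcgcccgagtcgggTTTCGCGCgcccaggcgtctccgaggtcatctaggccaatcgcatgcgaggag
Dnmt1 upstream: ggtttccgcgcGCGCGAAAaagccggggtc
Dnmt1 downstream: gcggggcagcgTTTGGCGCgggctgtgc
A match describes letters only and says nothing of binding.

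CpG content varied among the member promoters. The ratio of observed to expected CpG was above the median of all windows (0.384) in 12 of the 13 member windows. It was 1.17 for Tet2, higher than in 99.2% of all windows, 0.99 for Tdg and 0.96 for the Uhrf1 window shown above. Others lay nearer the median, with 0.58 for Tet3, 0.50 for the middle Dnmt1 window and 0.47 for the other Uhrf1 window. The most downstream Dnmt3a window was also at 0.47, higher than in 56.0% of all windows. The window below the median was the most upstream of Dnmt1, at 0.10. No methylation was measured in these samples.

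Both de novo methyltransferases had lower values after induction, and Dnmt3b passed the test. Dnmt3b (chromosome 2, 153649450 to 153687730, plus strand) had 3.02 and 1.75 FPKM in DMSO-induced samples and 6.07 and 5.34 FPKM in uninduced samples. The groups did not overlap, and the DMSO-induced replicates differed 1.73-fold. Dnmt3b fell, with a log2 fold change of -1.01 ± 0.27 on the log2(FPKM + 1) scale (limma adjusted p = 0.0490, 95% interval -1.69 to -0.32). The call sits at the threshold and was lost with a pseudocount of 0.1 (adjusted p = 0.0591) and with sums that leave out globins and top loci (0.0757).

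Dnmt3a (chromosome 12, 3806007 to 3914443, plus strand) had 10.9 and 11.7 FPKM in DMSO-induced samples and 18.9 and 18.3 FPKM in uninduced samples. Replicates were close and the groups did not overlap. The log2 fold change of -0.67 ± 0.19 came just short (limma adjusted p = 0.0559, 95% interval -1.15 to -0.19). It passed with median-of-ratios scaling (adjusted p = 0.0383) and among protein-coding loci alone (0.0362). With sums that leave out globins and top loci it came to -0.58 (limma adjusted p = 0.107). Without the filter on low values the limma adjusted p was 0.148. Dnmt3a was thus the de novo enzyme with the higher level in every sample. There were 3.60 and 6.70 FPKM of Dnmt3a per FPKM of Dnmt3b in DMSO-induced samples and 3.11 and 3.42 in uninduced samples. The log2 difference of 0.59 was smaller than the SD of 0.63 between DMSO-induced replicates (exact permutation p = 0.33, again the lowest value possible). It was 0.14 without DMSO-induced replicate 2, 1.04 without DMSO-induced replicate 1, and 0.34 with 1 FPKM added to each gene.

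The relatives of the de novo enzymes were nearly silent. Dnmt3l, a catalytically inactive partner of both, was at 0.07 and 0.04 FPKM in DMSO-induced samples and at 0 and 0.07 FPKM in uninduced samples. Dnmt3c (chromosome 2, 153696652 to 153729907), a rodent copy of Dnmt3b active in male germ cells and listed as Gm14490, was at 0.13 and 0.16 FPKM in DMSO-induced samples and 0.07 and 0.23 FPKM in uninduced samples. Reads from so close a copy can be assigned to either gene, but its level was far below that of Dnmt3b in all 4 samples. The antisense genes Dnmt3aos and Dnmt3bos, which overlap Dnmt3a and Dnmt3b, were at 0.11 FPKM or less. Whether counting used strand is not stated, so antisense reads cannot be told apart.

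TET transcripts were low, and none of the family passed the test. Tet2 (chromosome 3, 133463679 to 133545139, minus strand), the family member most often mutated in blood cancers, had 6.79 and 5.41 FPKM in DMSO-induced samples and 4.83 and 1.84 FPKM in uninduced samples. Both DMSO-induced values were higher, but the uninduced replicates differed 2.63-fold. The log2 fold change was 0.80 ± 0.39 (limma adjusted p = 0.183, 95% interval -0.21 to 1.80), and leaving out uninduced replicate 2 gave 0.28, against 1.32 when uninduced replicate 1 was left out. The table's Tet2 locus reaches 133585053, the far end of the antisense gene Gm42567, which had no row of its own and whose reads may be counted with Tet2.

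Tet3 (chromosome 6, 83362373 to 83459084, minus strand) had 4.12 and 3.59 FPKM in DMSO-induced samples and 2.94 and 2.23 FPKM in uninduced samples. The groups did not overlap, and the log2 fold change was 0.44 ± 0.22 (adjusted p = 0.193, 95% interval -0.13 to 1.01). The noncoding gene B230319C09Rik lies within Tet3 on the opposite strand, and was at 0.91 and 0.85 FPKM in DMSO-induced samples and 0.31 and 0.38 FPKM in uninduced samples. Without strand its reads and those of Tet3 could not be separated where exons overlap.

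Tet1 (chromosome 10, 62804570 to 62908996, minus strand), abundant in embryonic stem cells, was at the bottom of the table. It was listed at 0 and 0.02 FPKM in DMSO-induced samples and at 0.04 and 0.05 FPKM in uninduced samples, below the 1 FPKM needed for testing. A difference was not detectable at such levels. Tet2 made up 62.2% and 60.0% of the summed TET FPKM in DMSO-induced samples and 61.8% and 44.7% in uninduced samples, with nearly all the rest from Tet3.

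Tdg, which removes oxidised cytosines made by TET enzymes, was lower after induction. Tdg (chromosome 10, 82629828 to 82650799, plus strand) had 22.5 and 21.2 FPKM in DMSO-induced samples and 37.6 and 39.6 FPKM in uninduced samples. Replicates agreed closely and the groups were well apart. Tdg fell by 0.79 ± 0.18 on the log2(FPKM + 1) scale (limma adjusted p = 0.0352, 95% interval -1.25 to -0.33). The call was lost with quantile scaling (adjusted p = 0.0521) and with sums that leave out globins and top loci (0.0666).

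Tdg has a processed pseudogene, Tdg-ps (chromosome 15, 82516311 to 82519278), listed as Gm5806. It was at 2.52 and 1.79 FPKM in DMSO-induced samples and 3.42 and 3.67 FPKM in uninduced samples. Tdg stood 8.93-fold and 11.8-fold above it in DMSO-induced samples and 10.98-fold and 10.78-fold in uninduced samples. The split of reads between a gene and its processed copy is uncertain, so part of either level may belong to the other. The table's Tdg locus runs on to 82690650, the far end of Glt8d2, and the 3′ end of Tdg overlaps 367 bases of Glt8d2 on the opposite strand, which was at 0.28 FPKM or less in every sample.

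**Figure D2:**
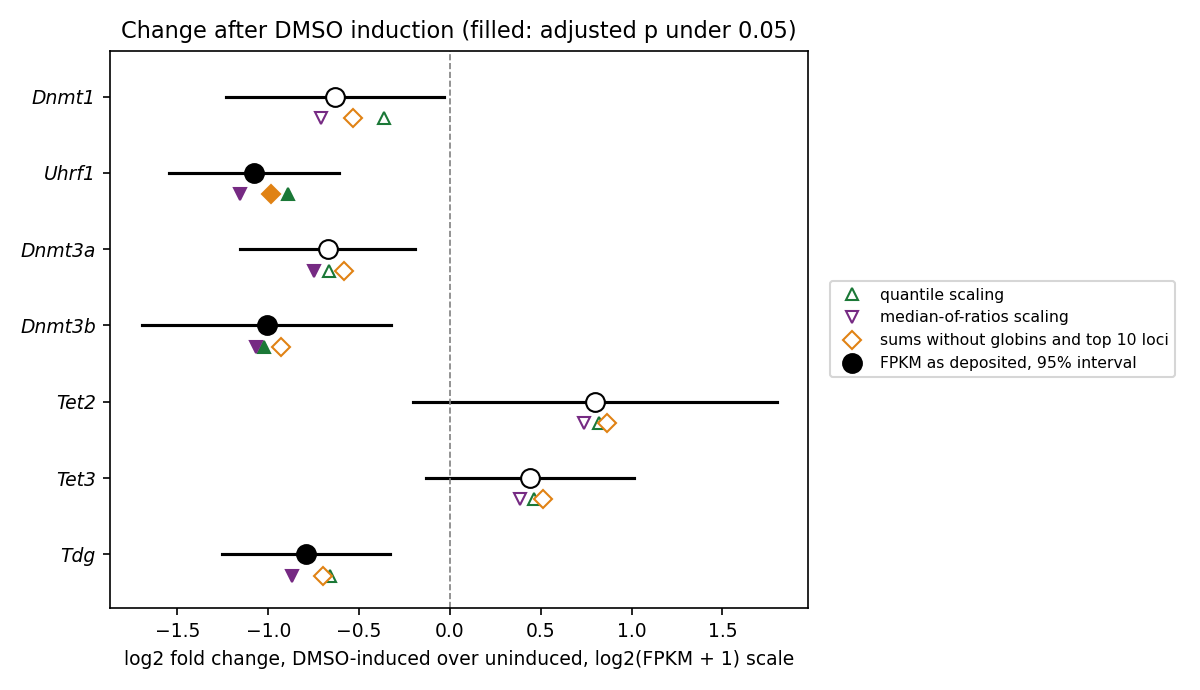
Log2 fold change, DMSO-induced over uninduced, on the log2(FPKM + 1) scale (horizontal axis) for the 7 tested genes. Circles with lines are limma estimates from the deposited FPKM with 95% intervals, small symbols are the same under 3 other scalings, and filled symbols passed an adjusted p of 0.05. Uhrf1 is filled throughout, Dnmt1, Tet2 and Tet3 are open throughout, and Dnmt3a, Dnmt3b and Tdg change with the scaling.

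The order of levels in DMSO-induced cells was Dnmt1, Uhrf1, Tdg, Dnmt3a, Tet2, Tet3, Dnmt3b and Tet1. In uninduced cells it was Dnmt1, Uhrf1, Tdg, Dnmt3a, Dnmt3b, Tet2, Tet3 and Tet1. Dnmt3b, above Tet2 and Tet3 in both uninduced samples, was below both of them in both DMSO-induced samples. Neighbours in this order did not overlap in either group, except Tet2 and Tet3 in uninduced cells.

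The ratio of summed methyltransferase to summed TET transcripts was lower in both DMSO-induced samples. Tdg, also lower after induction, is not part of this ratio. Summed FPKM of Dnmt1, Dnmt3a and Dnmt3b was 13.7 and 12.6 times that of the TET genes in DMSO-induced samples and 27.7 and 47.4 times in uninduced samples. The groups did not overlap, and the uninduced pair lay far apart. Mean log2 ratios were 3.72 ± 0.09 in DMSO-induced and 5.18 ± 0.55 in uninduced cells (SD, n = 2 each), a difference of -1.46 (two-sided exact permutation p = 0.33, the lowest value possible). Dnmt1 alone gave 90.7% and 88.1% of the methyltransferase sum in DMSO-induced samples and 88.4% and 87.9% in uninduced samples, so the ratio describes mainly Dnmt1 against Tet2 and Tet3.

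**Figure D3:**
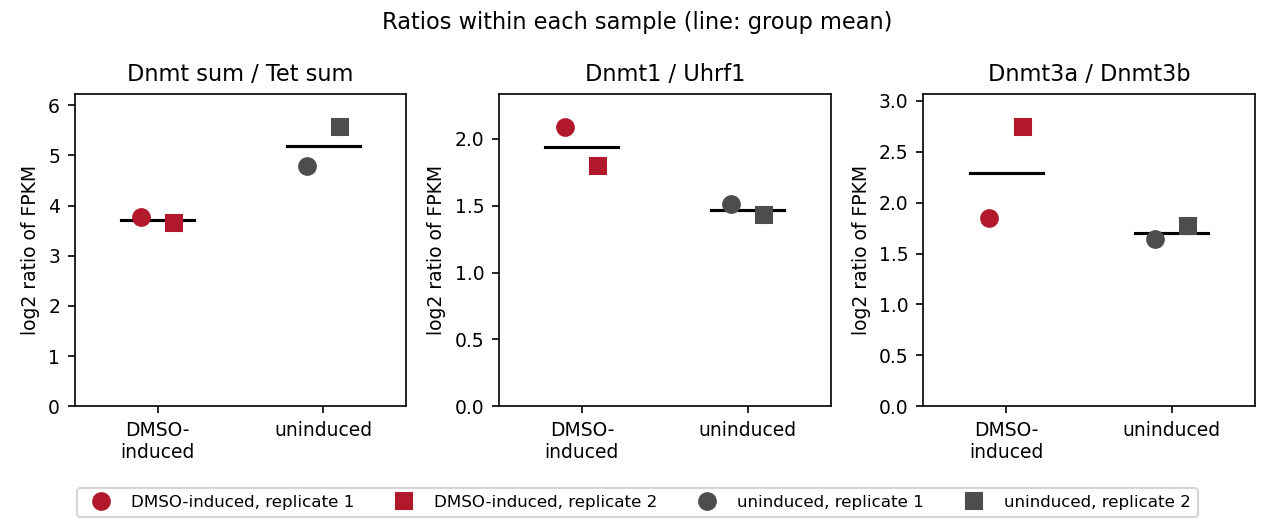
Log2 ratios of FPKM within each sample (vertical axes, from 0) for the summed Dnmt over the summed Tet genes, Dnmt1 over Uhrf1, and Dnmt3a over Dnmt3b. Red symbols are DMSO-induced and grey symbols uninduced samples, and lines are means of n = 2. The Dnmt to Tet ratio is lower in both DMSO-induced samples (mean 3.72 against 5.18), and the other ratios are higher in both, with the Dnmt3a to Dnmt3b replicates far apart.

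Among factors that bring the methyltransferases to DNA, 3 of 13 tested genes were called lower, 1 higher and 9 were not called, near the share over all loci (26.2% called, 14.7% lower and 11.5% higher), with a median log2 fold change of -0.37. Of the pathway genes called here and below, Cdca7, Gadd45g, Apex1 and Ahcy were each still called in 1 of the 4 fits that left out a sample, and the others in none. Cdca7, which with the remodeller Hells opens nucleosomal DNA for maintenance methylation, had 19.08 and 10.48 FPKM in DMSO-induced samples and 62.6 and 64.2 FPKM in uninduced samples (log2 fold change -2.08 ± 0.31, adjusted p = 0.0167). Hells itself had 8.05 and 1.94 FPKM in DMSO-induced samples and 19.2 and 8.22 FPKM in uninduced samples and did not pass (adjusted p = 0.163). Lig1, the replicative DNA ligase that also recruits Uhrf1, had 20.9 and 14.1 FPKM in DMSO-induced samples and 37.2 and 33.7 FPKM in uninduced samples (-1.0 ± 0.25, adjusted p = 0.0431). Cdca7l, a relative of Cdca7, had a log2 fold change of -0.92 (adjusted p = 0.0493). The calls of Lig1 and Cdca7l were lost with quantile scaling (adjusted p = 0.0569 and 0.0613). Both were also lost with sums that leave out globins and top loci (0.0778 and 0.0817), and Cdca7l with a pseudocount of 0.1 (0.0543).

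Uhrf2, the paralog of Uhrf1, was the gene of this list called higher. It had 27.8 and 33.9 FPKM in DMSO-induced samples and 16.2 and 15.9 FPKM in uninduced samples, with groups that did not overlap (log2 fold change 0.90 ± 0.20, limma adjusted p = 0.0336). The ranges of Uhrf1 and Uhrf2 overlapped in DMSO-induced cells, while in uninduced cells both Uhrf1 values lay above those of Uhrf2. Uhrf2 is known to bind hydroxymethylated DNA, and it does not take the place of Uhrf1 in maintenance.

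Readers of methylated DNA were 8 tested genes, of which 2 were called lower, 1 higher and 5 not called, against 26.2% of all loci called (median log2 fold change 0.32). With a filter of 5 FPKM, 1 reader, Mbd3, was called. The other called readers, Mbd5 and Mbd1, stayed below 5 FPKM in every sample and were not tested in that fit. Mbd3 had 26.2 and 21.1 FPKM in DMSO-induced samples and 73.8 and 78.4 FPKM in uninduced samples (-1.65 ± 0.20, adjusted p = 0.0130). Mbd5 had 4.98 and 4.43 FPKM in DMSO-induced samples and 1.70 and 1.34 FPKM in uninduced samples (1.18 ± 0.21, adjusted p = 0.0222). Mammalian Mbd3, a subunit of the NuRD complex, and Mbd5 carry the domain of the family but bind methylated DNA poorly. The other called gene, Mbd1, was at 0.27 and 0.32 FPKM in DMSO-induced samples and 1.04 and 1.27 FPKM in uninduced samples (-0.73, adjusted p = 0.0490), a call lost with quantile scaling (0.0525). Mbd1 reached 1 FPKM only in the uninduced samples and so entered the test through the group where it was high, and its call carries no weight.

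Among genes that act with TET enzymes, 1 of 12 tested was higher, 1 lower and 10 not called, a smaller share than the 26.2% over all loci, with a median log2 fold change of 0.20. Gadd45g, a stress gene of a family linked to active demethylation, had 38.9 and 56.1 FPKM in DMSO-induced samples and 10.9 and 11.2 FPKM in uninduced samples (1.98 ± 0.24, adjusted p = 0.0130). Idh2, the mitochondrial isocitrate dehydrogenase that makes the TET cosubstrate 2-oxoglutarate, had 67.9 and 59.5 FPKM in DMSO-induced samples and 134 and 185 FPKM in uninduced samples (-1.30 ± 0.24, adjusted p = 0.0226).

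Base excision repair, the pathway that completes demethylation after Tdg, had 4 of 12 tested genes lower, 1 higher and 7 not called, beside 14.7% of all loci called lower and 11.5% higher (median log2 fold change -0.32). Apex1, the endonuclease that acts on the site Tdg leaves, had 14.1 and 9.64 FPKM in DMSO-induced samples and 53.3 and 61.8 FPKM in uninduced samples (-2.20 ± 0.25, adjusted p = 0.0128). Ung, which removes uracil, and Ogg1, which removes oxidised guanine, were lower as well (-1.52 ± 0.29, adjusted p = 0.0239, and -1.11 ± 0.22, adjusted p = 0.0254). Mbd4, a thymine glycosylase with a methyl-CpG binding domain and an activity like that of Tdg, was higher. It had 7.24 and 8.83 FPKM in DMSO-induced samples and 3.86 and 3.42 FPKM in uninduced samples (0.96 ± 0.22, adjusted p = 0.0349). Of the pair of thymine glycosylases, Tdg was thus called lower and Mbd4 higher. Neither had overlapping groups, as was so for 70.8% of all loci. The Tdg call was lost with quantile scaling (adjusted p = 0.0521) and with sums that leave out globins and top loci (0.0666).

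In the cycle of S-adenosylmethionine, the methyl donor, 2 of 10 tested genes were lower, 1 higher and 7 not called, near the 26.2% called over all loci (median log2 fold change -0.59). Ahcy, which clears the inhibitory product of every methyl transfer, had 47.9 and 35.7 FPKM in DMSO-induced samples and 160 and 153 FPKM in uninduced samples (-1.90 ± 0.22, adjusted p = 0.0128). Slc25a26, the mitochondrial importer of the donor, had 1.28 and 1.73 FPKM in DMSO-induced samples and 6.37 and 5.89 FPKM in uninduced samples (-1.51 ± 0.22, adjusted p = 0.0158). Ahcyl2, a relative of Ahcy, had 20.3 and 28.8 FPKM in DMSO-induced samples and 11.4 and 9.90 FPKM in uninduced samples (1.11 ± 0.25, adjusted p = 0.0329).

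**Figure D4:**
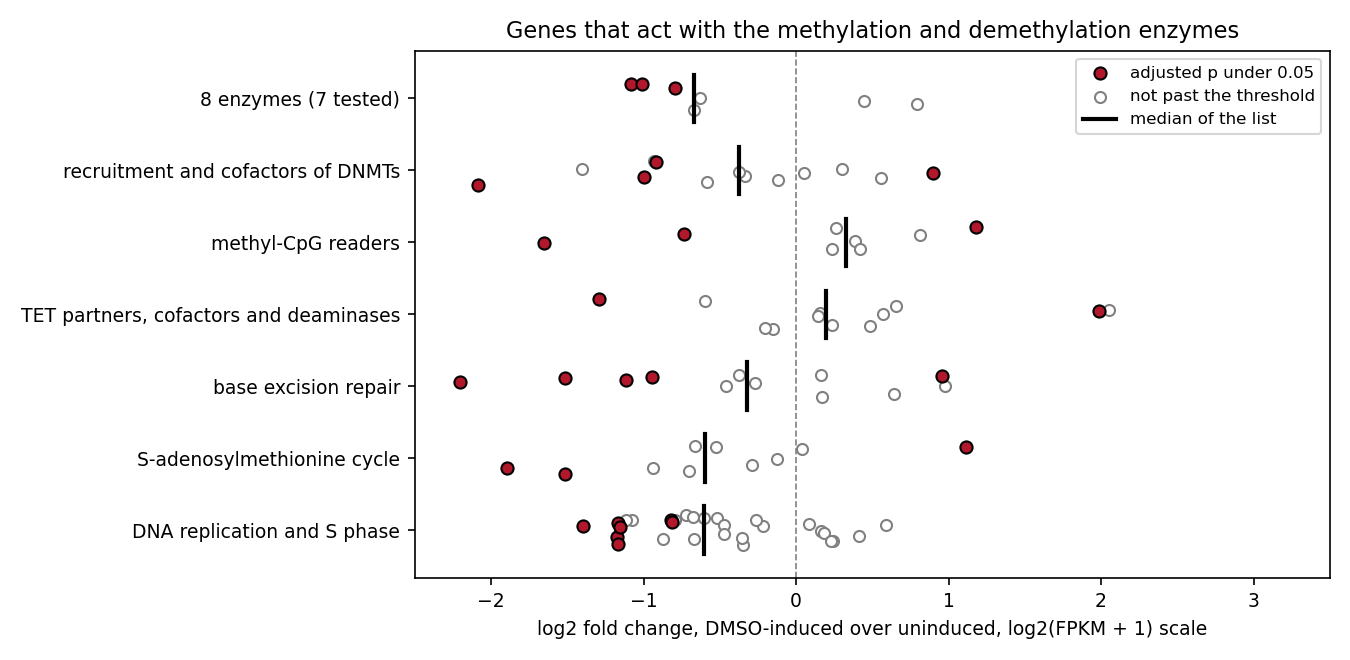
Log2 fold change, DMSO-induced over uninduced, on the log2(FPKM + 1) scale (horizontal axis) for each tested gene of the enzyme set and 6 related lists (rows; vertical scatter within a row has no meaning). Filled points passed a limma adjusted p of 0.05, open points did not, and bars are list medians. The enzyme set has its median at -0.67, and every related list holds genes called lower, with genes called higher in all but DNA replication.

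Since Dnmt1 and Uhrf1 act at the replication fork, genes of DNA replication were set beside them. Of 29 tested, 7 were lower, none higher and 22 not called. Over all loci 14.7% were called lower and 11.5% higher, or 26.2% in either direction. The list had a median log2 fold change of -0.61. Mcm2, a subunit of the replicative helicase, had 41.0 and 32.6 FPKM in DMSO-induced samples and 102 and 94.2 FPKM in uninduced samples (-1.40 ± 0.21, adjusted p = 0.0166). Mcm5 and Mcm3, of the same complex, had log2 fold changes of -1.17 (adjusted p = 0.0371) and -1.17 (adjusted p = 0.0318). Their calls were lost with sums that leave out globins and top loci (0.0654 and 0.0576), and that of Mcm5 also with quantile scaling (0.0679). Pcna, the sliding clamp that also holds Dnmt1 at the fork, had 203 and 148 FPKM in DMSO-induced samples and 275 and 174 FPKM in uninduced samples and did not pass (adjusted p = 0.452). The part of cell cycle composition in the levels of Dnmt1 and Uhrf1 was not tested.

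Genes known to be silenced by promoter methylation outside the germline were mostly listed at low values. Of 17 germline genes with a row of their own, 16 were below the level needed for testing, and 4 were listed at 0 in every sample. Dazl, a germ cell RNA-binding protein, was listed at 0.03 and 0 FPKM in DMSO-induced samples and at 0 in both uninduced samples. Zcwpw1, a meiotic histone reader, had 0.77 and 0.83 FPKM in DMSO-induced samples and 2.73 and 1.53 FPKM in uninduced samples. It reached 1 FPKM only in the uninduced samples, so its entry to the test depended on the group where it was high, and no test is given. It is named, like Hells, Pcna and Dazl, after its values were seen.

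For each called enzyme the loci closest in pattern were sought among 6677 loci, by the distance between log2(FPKM + 1) values centred on each gene's own mean over the 4 samples. Dnmt3b was closest to Lig1 (distance 0.019), Siah1b (0.039) and Rnpep (0.073). Tdg was closest to Adprh (0.011), Tbccd1 (0.047) and Ldha (0.059). Among the loci closest to Uhrf1 were Ptcd2 (0.035) and Gtf2f2 (0.045). With so few samples these distances are a description only.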

How the data were processed

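RNA-seq of 2 DMSO-induced and 2 uninduced MEL samples was analysed; groups and replicate numbers come from the sample titles. TopHat2 is named as a tool and GRCm38 as the build, per the submitters' processing notes. Not given in the sources used here are the quantifier, versions, annotation, strandedness and depth. The table deposited by the authors holds FPKM in 1 column per sample; the unit was inferred from its Cufflinks-type header, per the file headers, and from column sums of 1055861 to 1325806. FPKM is relative to each library's total, so very abundant transcripts lower the values of others. No counts were given, so no count model was used and no counting interval can be given.

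Loci reaching 1 FPKM in 2 or more samples (12890) were tested on the log2(FPKM + 1) scale. The test was limma 3.58.1 in R 4.3.3 (trend, group as the only term), with p-values adjusted by Benjamini-Hochberg across those loci and a threshold of 0.05. This scale understates changes of low genes. The fit was also run on simulated data to check the code, which says nothing of the calls reported here. Gene positions come from GENCODE M21 on GRCm38 and promoter sequences from RefSeq on GRCm38.p6, which held windows for 8 of 8 members. Ratios within samples used an exact permutation test over 6 arrangements. List genes sharing a row or with several rows were left out. The members and gene lists were chosen with earlier results of these data known. Beside the members, the text names up to 3 called genes per direction of each list with the largest change, and the 3 loci closest in pattern to each called member, with 5 FPKM or more on average; 1 of these loci is not reported here. Alternatives were 3 scalings, 2 filters, a pseudocount of 0.1, protein-coding loci only, a replicate block and leaving out each sample.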

Additional observations from a re-analysis of the deposited data

How the results depend on the processing

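All 83 alternative fits of the 7 tested members kept the member's direction. As the groups of these members did not overlap, only the 3 scalings could have reversed it, and the other fits add no support. The number of loci called was 3377, 220 without the filter on low values, and 14 to 486 when 1 sample was left out. The number of members called was 3, 0 without the filter, 1 with sums that leave out globins and each sample's 10 top loci, and 0 whichever sample was left out. The fit without the filter tests more loci, and each fit with a sample left out rests on 3 samples. Without the filter Uhrf1 (-1.08, adjusted p = 0.125), Dnmt3b (-1.01, 0.323) and Tdg (-0.79, 0.131) did not pass. Left-out samples gave -1.15 to -1.01 for Uhrf1, -1.28 to -0.74 for Dnmt3b and -0.83 to -0.75 for Tdg. Dnmt3b did not pass with a pseudocount of 0.1 (-1.27) or with those sums (-0.93), and Tdg not with those sums (-0.70) or quantile scaling (-0.66). Dnmt3a passed with median-of-ratios scaling (-0.75) and among protein-coding loci (-0.67), and with none of the other alternatives. The cause of these shifts was not tested. Scaling moved the median of all loci to -0.04 to 0.11 (0.03 as deposited).

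With the replicate number as a block, 4238 loci and 3 members were called, with adjusted p of 0.0210 for Uhrf1, 0.0317 for Dnmt3b and 0.0380 for Tdg; with 2 pairs the numbers are not shown to pair the samples (correlation of deviations across loci 0.17). The block called 12 genes of DNA replication, against 7, and 5 of the S-adenosylmethionine cycle, against 3. Protein-coding loci alone gave 13 and 5 for these lists, and 4 genes acting with TET enzymes, against 2. No pathway list had more than 1 gene called without the filter or with a sample left out. Of the other scalings, quantile scaling called 2 recruitment genes, against 4, and the sums called 2 of these and 3 of DNA replication. Depth was not given, so no detection limit can be stated for Tet1. Left-out samples gave -0.85 to -0.41 for Dnmt1.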
